A study of Mus musculus with 10 samples.

Results

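The integrated stress response and serine synthesis genes described here are 33 mouse genes that cells use to sense and to survive a shortage of amino acids or a load of unfolded protein. They were taken from a list of names grouped by role, and for each gene the row with the highest mean RPKM (reads mapped to a transcript, scaled to its length in kilobases and to the mapped reads of the library) over the 10 libraries stood for it. All 33 were found among the 24448 genes of the deposited table, and all 33 were among the 11922 genes tested, those with at least 1 RPKM in at least 2 libraries. Cells came from V6.5, a line of mouse embryonic stem cells (ESCs). The 5 groups were neural progenitor cells (NPCs, so labelled) with siRNA against Cbx3, NPCs with siRNA against Med26, NPCs with control siRNA against luciferase, ESCs with siRNA against Cbx3, and ESCs with the same control siRNA. ESCs were grown with leukemia inhibitory factor on a layer of irradiated embryonic fibroblasts. NPCs were derived from them through 4 days as embryoid bodies and a monolayer in ITSF medium, transfected on day 5 and harvested on day 8. Each group had 2 libraries that the labels call biological replicates, all from 1 cell line, and the adjusted p-values below measure only the spread between these samples. Cbx3 encodes HP1 gamma, a chromatin protein that reads methylated histone H3, and Med26 is part of Mediator, which carries signals of transcription factors to the polymerase that makes mRNA. The series title asks how Cbx3 keeps lineage choice specific during neural differentiation.

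In the integrated stress response, kinases that sense uncharged tRNA, unfolded protein, viral RNA or lack of heme phosphorylate the translation factor eIF2. General translation then slows, while the mRNA of the transcription factor ATF4 is translated more. ATF4, paired with a C/EBP protein, binds C/EBP-ATF response elements and drives genes for amino acid synthesis, amino acid import and tRNA charging, and genes that end the response. Serine made by PHGDH, PSAT1 and PSPH feeds one-carbon units through SHMT2 and MTHFD2 in mitochondria into purine and thymidylate synthesis, a route that proliferating cells use heavily. Since ATF4 is controlled largely at translation, its RNA level alone does not report its activity.

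Each target was lower in both libraries with its siRNA than in both controls, and in ESCs the difference did not pass. Cbx3 was at 0.425 and 0.248 RPKM in the NPC libraries with Cbx3 siRNA, against 9.37 and 9.65 RPKM in NPC control (difference of -2.98 on the log2 scale, adjusted p = 0.000173, limma with Benjamini-Hochberg adjustment), and at 1.01 and 1.96 RPKM in ESCs with Cbx3 siRNA, against 14.0 and 56.4 RPKM in ESC control (difference of -3.59, adjusted p = 0.291, limma). Med26 was at 3.04 and 3.07 RPKM with Med26 siRNA, against 7.56 and 6.78 RPKM in NPC control (log2 change -1.01). Replicates agreed less in ESCs (r = 0.949 across genes in both groups) than in NPCs (r between 0.995 and 0.996). For the 33 genes the median gap between replicates on the log2(RPKM + 1) scale was 0.26 and 0.33 in ESCs with Cbx3 siRNA and ESC control, against 0.07 to 0.10 in the NPC groups.

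After Cbx3 siRNA in NPCs, 12 of the 33 genes passed the test (36.4%, against 13.1% of all genes tested). Of these, 10 fell, against 5.33% of all genes, and 2 rose, against 7.81% of all genes. Those that fell were Atf4 itself, the glutathione-degrading enzyme gene Chac1, the feedback gene Ppp1r15a and the receptor gene Vldlr. The others that fell were the serine synthesis genes Phgdh and Psph, the mitochondrial one-carbon genes Shmt2, Mthfd2 and Aldh1l2, and the arginine and lysine transporter gene Slc7a1. Without Aldh1l2, which passed the filter on low values only through control libraries, 11 of 32 passed (34.4%), 9 of them lower. Nupr1, a small stress-induced nuclear protein, and Cth, which makes cysteine from cystathionine, rose. The median log2 change over the 33 genes was -0.15, against 0.01 over all genes, and both Cbx3 siRNA libraries lay below both control libraries for 21 genes (26.5% of all genes did so) and above them for 4 (30.1% of all genes). The count rests on the fit of the 6 NPC libraries: in the fit of all 10 libraries 0 of the 33 genes passed, with 1 gene of the whole table called. With 1 library left out, fewer of the 33 genes and fewer of all genes were called in each of the 6 fits. Without control replicate 1, or without Cbx3 siRNA replicate 1, the 33 genes were called no more often than all genes. The median log2 change over the 33 was -0.14 and -0.17 without control replicate 1 and 2. It was -0.15 and -0.19 without Cbx3 siRNA replicate 1 and 2. The log2 change of Nupr1 lay between 0.93 and 1.13 over the 6 fits.

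After Med26 siRNA in NPCs, 16 of the 33 genes passed (48.5%, against 13.4% of all genes), all of them lower: 16 fell, against 6.47% of all genes, and 0 rose, against 6.91% of all genes. The 16 hold all 4 genes of serine and asparagine synthesis, Phgdh, Psat1, Psph and Asns, the role with the highest share of calls. They also hold the mitochondrial genes Shmt2, Mthfd2, Aldh1l2, Pck2 and Aldh18a1, and the factors Nupr1 and Cebpb. The rest are the feedback gene Trib3, the glutathione-degrading enzyme gene Chac1, the tRNA exporter gene Xpot, and the transporter genes Slc7a11 and Slc6a9. Without Aldh1l2, 15 of 32 passed (46.9%). The median log2 change over the 33 genes was -0.29, against 0.00 over all genes, and both Med26 siRNA libraries lay below both control libraries for 24 genes (29.8% of all genes) and above them for 5 (29.1% of all genes). Both knockdown comparisons use the same 2 control libraries, so their values are given side by side. In the fit of all 10 libraries 0 of the 33 genes passed, with 15 genes of the whole table called. With 1 library left out, fewer of the 33 genes and fewer of all genes were called in each of the 6 fits. Without Med26 siRNA replicate 2, the share of the 33 genes called was near that of all genes. The median log2 change over the 33 was -0.24 and -0.27 without control replicate 1 and 2. It was -0.27 and -0.28 without Med26 siRNA replicate 1 and 2. The log2 change of Pck2 lay between -0.86 and -0.83 over the 6 fits.

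**Figure D1:**
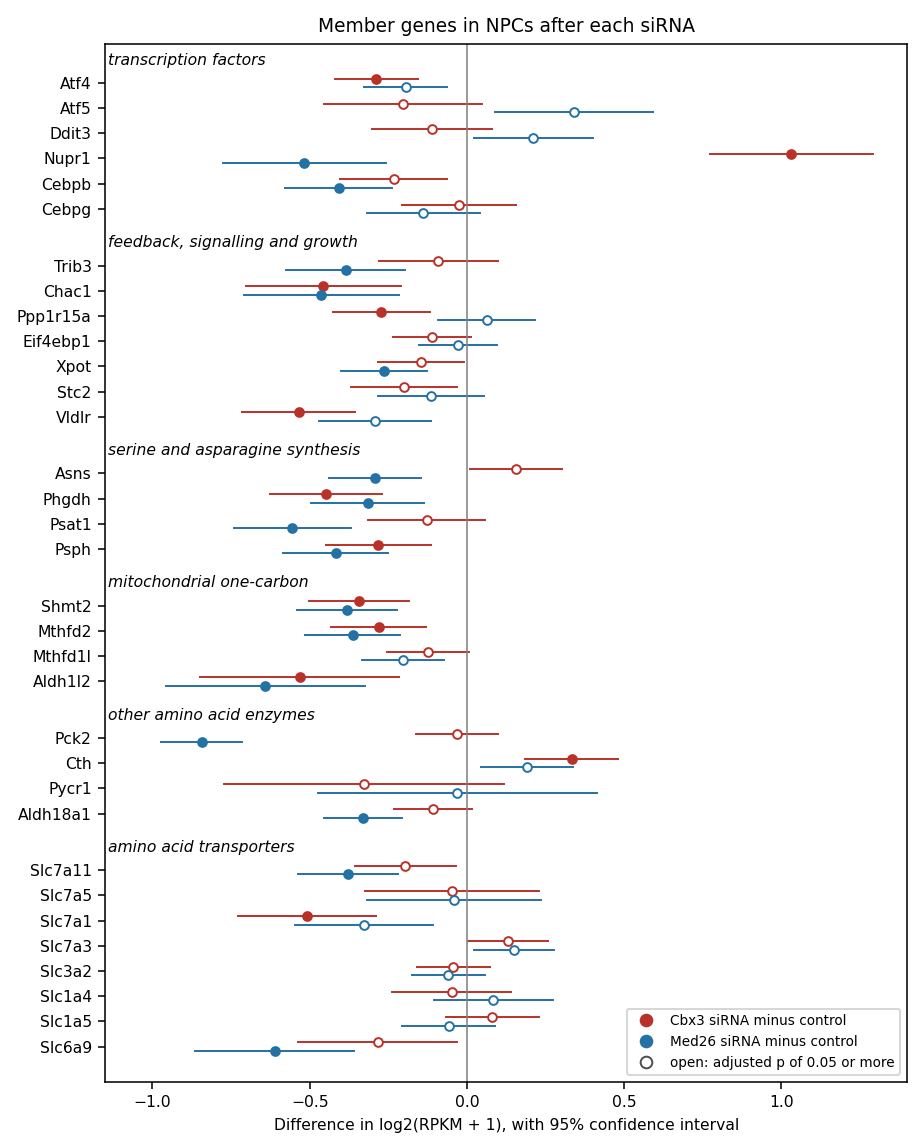
The difference in log2(RPKM + 1) from NPC control is drawn for each of the 33 genes, by role, after Cbx3 siRNA (red) and after Med26 siRNA (blue), with 95% confidence intervals from limma; filled points have an adjusted p under 0.05. Filled points lie left of 0 for 10 genes after Cbx3 siRNA and for 16 after Med26 siRNA, and Nupr1 is far to the right after Cbx3 siRNA only, at 1.03.

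The 2 knockdowns were also set directly against each other, in the same fit of the 6 NPC libraries, where the control libraries enter only the estimate of the spread. Of the 33 genes, 9 passed (27.3%, against 18.3% of all genes). With Cbx3 siRNA 6 genes were higher than with Med26 siRNA (10.4% of all genes were), namely Nupr1, Pck2, Asns, Psat1, Trib3 and Aldh18a1, and 3 were lower (7.87% of all genes were), namely Atf5, Ppp1r15a and Ddit3. With 1 library left out, fewer of the 33 genes and fewer of all genes were called in each of the 6 fits. In several of these fits the share of the 33 called was near that of all genes. Over the 6 fits the log2 difference lay between 1.44 and 1.66 for Nupr1, 0.79 and 0.83 for Pck2, and 0.42 and 0.48 for Asns. In the fit of all 10 libraries 1 of the 33 passed, which was Nupr1, with 121 genes of the whole table called.

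The C/EBP-ATF response element is the sequence through which ATF4 acts, so it was looked for near the start of these genes. The list holds genes of a response that ATF4 drives. A high share of this element thus follows in part from the choice of genes. RefSeq windows of 250 bases before to 50 after the gene start (GRCm38.p6) were at hand for 27 of the 33 genes, with none used for Aldh1l2, Cth, Eif4ebp1, Slc1a5, Slc7a3 and Slc7a5. The letters TGATGNAA, read on both strands, were in a window of 9 of the 27 genes (33.33%), against 2.652% of the 9351 tested genes with a window. Counted by window, since some genes have several, they were in 9 of 33 (27.3%), against 3.969% of all 32851 windows, and 1 of the 2 Vldlr windows holds them. The E-box CACGTG, a palindrome that is the site of MYC and related factors, does not overlap with it in sequence and was in a window of 3 of the 27 genes (11.11%), against 12.32% of tested genes, and in 3 of the 33 windows (9.09%), against 7.15% of all windows. The matches are shown with 11 bases on each side, on the strand that reads TGATGNAA and with those letters in capitals.
Asns, -23: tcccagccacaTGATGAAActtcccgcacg
Chac1, -193: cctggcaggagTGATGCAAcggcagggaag
Nupr1, -110: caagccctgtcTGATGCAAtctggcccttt
Pck2, -103: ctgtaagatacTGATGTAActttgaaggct
Pycr1, -103: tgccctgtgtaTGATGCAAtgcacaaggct
Slc1a4, -4: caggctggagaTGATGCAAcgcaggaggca
Slc7a11, -66: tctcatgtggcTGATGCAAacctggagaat
Slc7a11, -47: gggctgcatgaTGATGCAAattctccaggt
Trib3, 15: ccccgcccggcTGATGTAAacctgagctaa
Vldlr, -200: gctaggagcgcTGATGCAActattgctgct
The number after each name is the position of the most upstream base of the match relative to the gene start. Of the 9 genes, Asns, Chac1, Nupr1, Pck2, Slc7a11 and Trib3 fell after Med26 siRNA, where 16 of the 33 and 6.47% of all genes fell. Chac1 and Vldlr fell after Cbx3 siRNA, where 10 of the 33 and 5.33% of all genes fell. Nupr1 rose, as 2 of the 33 and 7.81% of all genes did. Calls among all tested genes with these letters were not counted. The part of the letters in these changes was not tested. A match is a stretch of letters and not a measured binding site.

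Among the transcription factors, Atf4 had the highest RNA level. It was at 164 and 171 RPKM with Cbx3 siRNA and 174 and 184 RPKM with Med26 siRNA, against 204 and 205 RPKM in NPC control. The 2 control libraries were the highest of the 6, and no group overlapped another. Atf4 fell after Cbx3 siRNA (log2 change -0.29, standard error 0.05, adjusted p = 0.0221, limma), while after Med26 siRNA the change was -0.20 (adjusted p = 0.0641, limma). Nupr1 moved in opposite directions: it was at 13.4 and 11.6 RPKM with Cbx3 siRNA and 3.27 and 3.96 RPKM with Med26 siRNA, against 5.67 and 5.49 RPKM in NPC control. The 3 groups were fully apart. Nupr1 rose after Cbx3 siRNA (log2 change 1.03, standard error 0.11, adjusted p = 0.00408, limma) and fell after Med26 siRNA (-0.52, adjusted p = 0.029, limma), and the direct difference between the knockdowns was 1.55 (adjusted p = 0.00113, limma).

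Atf5, a relative of ATF4 that is also favoured when eIF2 is phosphorylated, was at 6.99 and 6.16 RPKM with Cbx3 siRNA and 10.5 and 9.53 RPKM with Med26 siRNA, against 8.36 and 7.10 RPKM in NPC control. Ddit3, which encodes the pro-death factor CHOP, was at 8.83 and 8.29 RPKM with Cbx3 siRNA and 10.3 and 11.6 RPKM with Med26 siRNA, against 9.10 and 9.54 RPKM in NPC control. For both genes the Med26 siRNA libraries were the highest and the Cbx3 siRNA libraries the lowest, neither differed from control past the threshold, and the knockdowns differed from each other (Cbx3 minus Med26 siRNA -0.54 for Atf5 and -0.32 for Ddit3, adjusted p = 0.0183 and 0.0372, limma). Cebpb, a C/EBP family factor, was at 7.50 and 7.08 RPKM with Cbx3 siRNA and 6.19 and 6.50 RPKM with Med26 siRNA, against 8.87 and 8.61 RPKM in NPC control. It fell after Med26 siRNA (log2 change -0.41, adjusted p = 0.0186, limma) and was also below control in both Cbx3 siRNA libraries (-0.23, adjusted p = 0.0808, limma). Cebpg, a C/EBP partner without an activation domain, ranged between 6.08 and 7.28 RPKM over the 6 NPC libraries and passed in no comparison.

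**Figure D2:**
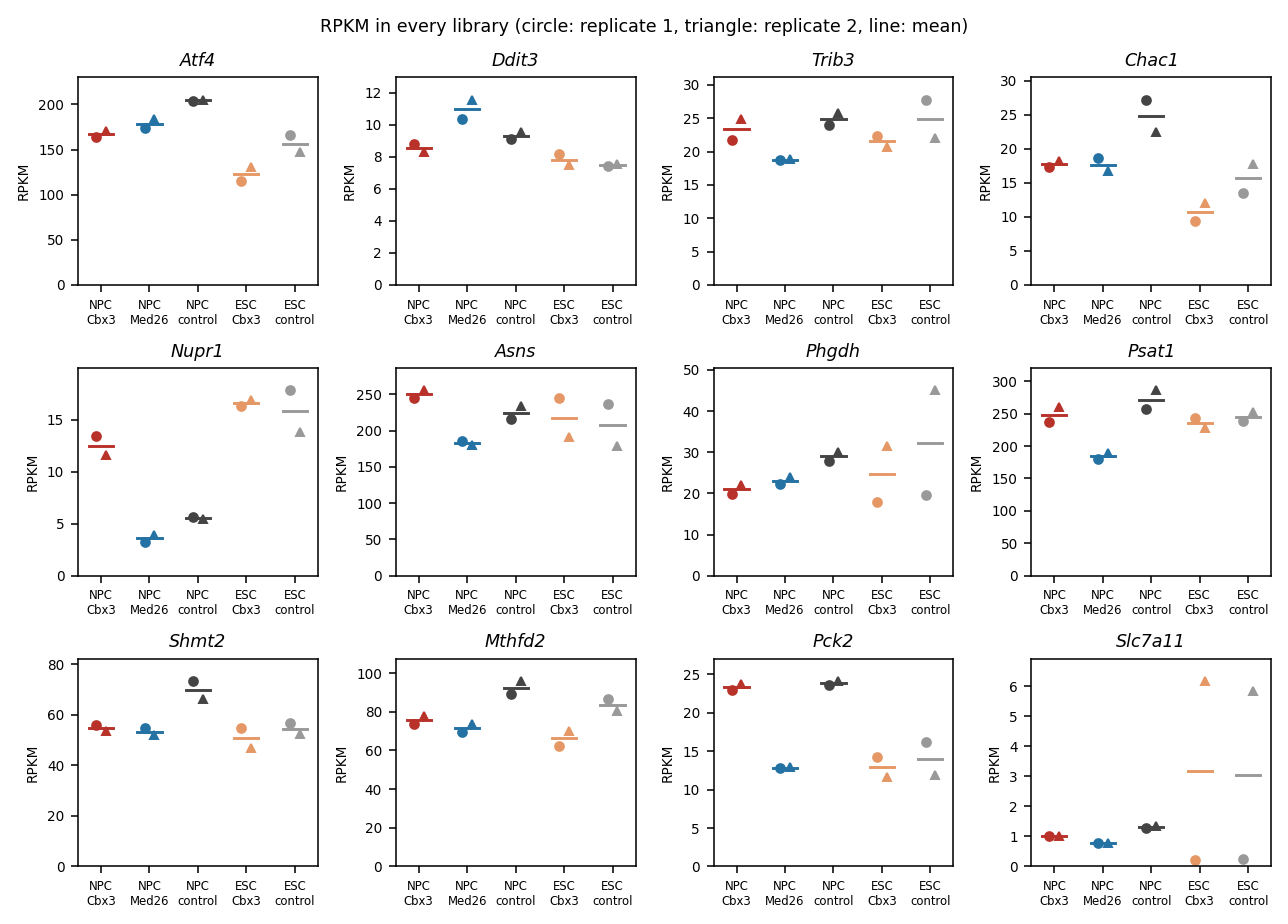
RPKM in each library is plotted for 12 of the genes, one panel each, in NPCs with Cbx3 siRNA, Med26 siRNA and control siRNA and in ESCs with Cbx3 siRNA and control siRNA (circle, replicate 1; triangle, replicate 2; line, mean). Pck2 is low only in the Med26 siRNA libraries among the NPC groups, Nupr1 is lower in all NPC groups than in ESCs, and the ESC replicates of Slc7a11 and Phgdh lie far apart.

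Chac1 fell after both knockdowns, while Trib3 and Ppp1r15a, which feed back on the response, split between them. Chac1, which degrades glutathione, was at 17.4 and 18.1 RPKM with Cbx3 siRNA and 18.7 and 16.7 RPKM with Med26 siRNA, against 27.2 and 22.5 RPKM in NPC control. It fell by the same log2 change of -0.46 after both (adjusted p = 0.0348 and 0.0343, limma), and the difference between the knockdowns was 0.01 with a 95% interval of -0.24 to 0.25. Trib3, a pseudokinase that restrains ATF4 and CHOP, was at 21.8 and 24.9 RPKM with Cbx3 siRNA and 18.7 and 18.9 RPKM with Med26 siRNA, against 24.0 and 25.8 RPKM in NPC control. Trib3 fell after Med26 siRNA (-0.39, adjusted p = 0.0277, limma), and its Cbx3 siRNA libraries overlapped the control. Ppp1r15a, known as GADD34, brings a phosphatase to eIF2 and so ends the response. It was at 8.00 and 7.78 RPKM with Cbx3 siRNA and 10.1 and 10.4 RPKM with Med26 siRNA, against 9.62 and 9.84 RPKM in NPC control, and it fell after Cbx3 siRNA (-0.27, adjusted p = 0.0403, limma). Its level with Cbx3 siRNA was also below that with Med26 siRNA (-0.33, adjusted p = 0.018, limma).

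Of the signalling and growth genes, Vldlr, a lipoprotein receptor induced by ATF4, was at 1.02 and 1.07 RPKM with Cbx3 siRNA and 1.43 and 1.41 RPKM with Med26 siRNA, against 2.06 and 1.86 RPKM in NPC control. It fell after Cbx3 siRNA (-0.53, adjusted p = 0.00902, limma), where its mean RPKM was 0.532 of the control mean, and the change after Med26 siRNA was -0.29 (adjusted p = 0.0503, limma). Xpot, the exportin that carries tRNA out of the nucleus, was at 24.9 and 26.5 RPKM with Cbx3 siRNA and 23.3 and 23.9 RPKM with Med26 siRNA, against 28.2 and 28.8 RPKM in NPC control, and it fell after Med26 siRNA (-0.26, adjusted p = 0.0322, limma). Eif4ebp1, an inhibitor of cap-dependent translation, was the most abundant of the 33 by RPKM in NPCs. It was at 323 and 333 RPKM with Cbx3 siRNA and 347 and 348 RPKM with Med26 siRNA, against 356 and 353 RPKM in NPC control, and neither difference passed. Stc2, a secreted glycoprotein, ranged between 9.75 and 11.6 RPKM and passed in no knockdown comparison.

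Of the 3 enzymes that make serine, Phgdh and Psph fell with both siRNAs, and Psat1 fell with Med26 siRNA. Phgdh, the first and committed enzyme, was at 19.9 and 22.1 RPKM with Cbx3 siRNA and 22.3 and 23.9 RPKM with Med26 siRNA, against 28.0 and 30.1 RPKM in NPC control. It fell after Cbx3 siRNA (-0.45, standard error 0.07, adjusted p = 0.0147, limma) and after Med26 siRNA (-0.32, adjusted p = 0.0415, limma). Phgdh has a named pseudogene copy, Phgdh-ps1, with which it could share reads. Psat1, the aminotransferase of the next step, was at 237 and 260 RPKM with Cbx3 siRNA and 179 and 189 RPKM with Med26 siRNA, against 257 and 286 RPKM in NPC control. Only the Med26 siRNA libraries were apart from the control libraries, and the difference was -0.55 (log2 scale, standard error 0.08, adjusted p = 0.0104, limma), and Psat1 was higher with Cbx3 than with Med26 siRNA (0.43, adjusted p = 0.0154, limma). Psph, the phosphatase that releases serine, was at 40.0 and 45.5 RPKM with Cbx3 siRNA and 39.0 and 38.4 RPKM with Med26 siRNA, against 51.8 and 52.2 RPKM in NPC control. Psph fell after both (-0.28 and -0.42, adjusted p = 0.0472 and 0.0168, limma).

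Asns, which makes asparagine from aspartate and glutamine, was one of the genes that told the knockdowns apart. It was at 245 and 256 RPKM with Cbx3 siRNA and 185 and 181 RPKM with Med26 siRNA, against 216 and 234 RPKM in NPC control. The 3 groups did not overlap, with Cbx3 siRNA on top. Asns fell after Med26 siRNA (-0.29, adjusted p = 0.0288, limma), the change after Cbx3 siRNA was 0.15 (adjusted p = 0.146, limma), and the direct difference was 0.45 (adjusted p = 0.00679, limma).

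In the mitochondrial one-carbon branch, Shmt2, which takes a carbon from serine, was at 56.0 and 53.6 RPKM with Cbx3 siRNA and 54.6 and 52.0 RPKM with Med26 siRNA, against 73.3 and 66.4 RPKM in NPC control. Mthfd2, the dehydrogenase and cyclohydrolase of the next step, was at 73.8 and 77.9 RPKM with Cbx3 siRNA and 69.6 and 73.5 RPKM with Med26 siRNA, against 89.0 and 95.8 RPKM in NPC control. Both genes fell after both siRNAs, Shmt2 by -0.34 and -0.38 and Mthfd2 by -0.28 and -0.36 on the log2 scale after Cbx3 and Med26 siRNA in turn (adjusted p = 0.0227 and 0.0183, and 0.0343 and 0.0183, limma). The differences between the knockdowns were 0.04 for Shmt2, with a 95% interval of -0.12 to 0.20, and 0.08 for Mthfd2, with an interval of -0.07 to 0.23. Aldh1l2, which oxidises formyl-tetrahydrofolate, was at 0.457 and 0.807 RPKM with Cbx3 siRNA and 0.403 and 0.614 RPKM with Med26 siRNA, against 1.21 and 1.49 RPKM in NPC control. It passed the filter on low values only through control libraries, and its calls after both siRNAs (-0.53 and -0.64, adjusted p = 0.0474 and 0.0283, limma) are those of a gene that could pass the filter only by being high in control. Mthfd1l, which releases formate from mitochondria, ranged between 48.6 and 57.7 RPKM, was below control in all 4 knockdown libraries and passed in neither comparison (-0.12 and -0.20).

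The largest difference from control after Med26 siRNA among the 33, on the log2(RPKM + 1) scale, was that of Pck2, the mitochondrial enzyme that turns oxaloacetate into phosphoenolpyruvate. Pck2 was at 23.0 and 23.7 RPKM with Cbx3 siRNA and 12.8 and 12.9 RPKM with Med26 siRNA, against 23.6 and 24.1 RPKM in NPC control. The Med26 siRNA libraries stood alone at 0.538 of the control mean (log2 change -0.84, standard error 0.05, adjusted p = 0.00162, limma), the change after Cbx3 siRNA was -0.03 (adjusted p = 0.744, limma), and the direct difference was 0.81 (adjusted p = 0.00112, limma). Pck2 and Nupr1 are the 2 genes in which the knockdowns differed most. Their upstream stretches of 250 bases are shown 5′ to 3′ on the gene strand. The match to the response element is in capitals (here the reverse complement of TGATGNAA). The Pck2 stretch is chr14:55540016-55540265, plus strand, and the Nupr1 stretch is chr7:126625471-126625720, minus strand, both RefSeq on GRCm38.p6.
Pck2: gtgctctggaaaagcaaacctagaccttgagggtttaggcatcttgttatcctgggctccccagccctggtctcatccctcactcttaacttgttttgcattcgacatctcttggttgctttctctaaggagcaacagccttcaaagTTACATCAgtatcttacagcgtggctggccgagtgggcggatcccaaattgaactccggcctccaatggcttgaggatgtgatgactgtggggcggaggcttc
Nupr1: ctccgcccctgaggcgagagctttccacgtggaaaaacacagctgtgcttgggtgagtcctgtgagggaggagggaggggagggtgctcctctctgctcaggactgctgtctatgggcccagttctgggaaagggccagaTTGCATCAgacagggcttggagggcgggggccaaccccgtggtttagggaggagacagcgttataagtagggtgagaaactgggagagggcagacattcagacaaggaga
Cth was at 90.3 and 94.7 RPKM with Cbx3 siRNA and 84.3 and 83.2 RPKM with Med26 siRNA, against 70.0 and 76.6 RPKM in NPC control. All 4 knockdown libraries were above control, and the rise passed after Cbx3 siRNA (0.33, adjusted p = 0.0201, limma) but not after Med26 siRNA (0.19, adjusted p = 0.0874, limma). Aldh18a1, which starts proline synthesis from glutamate, was at 44.4 and 46.7 RPKM with Cbx3 siRNA and 38.4 and 39.4 RPKM with Med26 siRNA, against 48.9 and 49.4 RPKM in NPC control. It fell after Med26 siRNA (-0.33, adjusted p = 0.0141, limma). Pycr1, the last step of proline synthesis, ranged between 1.52 and 3.06 RPKM in NPCs, with its control replicates the farthest apart of the 33, and passed in no comparison.

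Of the 8 transporter genes, 1 was lower after Cbx3 siRNA (12.5%, against 5.33% of all genes lower and 13.1% called in either direction). After Med26 siRNA 2 were lower (25%, against 6.47% lower and 13.4% called in either direction). Slc7a1, the cationic amino acid transporter, was at 9.55 and 8.63 RPKM with Cbx3 siRNA and 10.97 and 9.95 RPKM with Med26 siRNA, against 14.2 and 12.6 RPKM in NPC control. It fell after Cbx3 siRNA (-0.51, adjusted p = 0.019, limma) and was -0.33 after Med26 siRNA (adjusted p = 0.0638, limma). Slc7a11, the cystine and glutamate exchanger, was at 1.01 and 1.03 RPKM with Cbx3 siRNA and 0.779 and 0.773 RPKM with Med26 siRNA, against 1.29 and 1.33 RPKM in NPC control, and it fell after Med26 siRNA (-0.38, adjusted p = 0.0189, limma). Slc6a9, a glycine transporter, was at 3.49 and 3.28 RPKM with Cbx3 siRNA and 2.53 and 2.46 RPKM with Med26 siRNA, against 4.85 and 3.87 RPKM in NPC control, and it fell after Med26 siRNA (-0.61, adjusted p = 0.0183, limma). For both genes the 3 groups were apart, with control on top.

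The abundant transporters changed little. Slc7a3, a second cationic transporter, was at 143 and 146 RPKM with Cbx3 siRNA and 143 and 150 RPKM with Med26 siRNA, against 129 and 134 RPKM in NPC control, and neither difference passed (0.13 and 0.15). The neutral amino acid transporters Slc1a4 and Slc1a5 overlapped the control in both comparisons, within 15.2 to 17.9 RPKM for Slc1a4 and 22.6 to 26.3 RPKM for Slc1a5. Slc7a5, the transporter of large neutral amino acids, and Slc3a2, the heavy chain that carries it and Slc7a11 to the membrane, ranged between 118 and 143 RPKM and between 109 and 116 RPKM over the 6 NPC libraries and passed in no comparison.

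In ESCs, 0 of the 33 genes passed after Cbx3 siRNA in the limma fit of all 10 libraries, as 0% of all genes did, and 4 had an unadjusted p under 0.05, against 645 of all genes tested. These 4 were Mthfd2, Atf4, Chac1 and Vldlr, all lower (log2 changes of -0.33, -0.35, -0.51 and -0.33), with adjusted p between 0.712 and 0.878 (limma). Atf4 was at 115 and 131 RPKM in ESCs with Cbx3 siRNA, against 166 and 148 RPKM in ESC control. Mthfd2 was at 62.3 and 70.2 RPKM in ESCs with Cbx3 siRNA, against 86.8 and 80.4 RPKM in ESC control. Chac1 was at 9.41 and 12.0 RPKM in ESCs with Cbx3 siRNA, against 13.6 and 17.7 RPKM in ESC control. For these genes, and for Vldlr, Atf5, Eif4ebp1, Aldh1l2 and Slc1a4, both Cbx3 siRNA libraries lay below both controls, which makes 8 of 33 (13.1% of all genes did so), and none of the 33 lay above both (7.88% of all genes). The median log2 change was -0.12, against -0.03 over all genes.

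Some genes differed far more between ESC replicates than between ESC groups. Slc7a11 was at 0.206 and 6.17 RPKM in ESCs with Cbx3 siRNA, against 0.235 and 5.85 RPKM in ESC control, so replicate 2 exceeded replicate 1 by 2.57 and 2.47 on the log2(RPKM + 1) scale. Phgdh was at 17.8 and 31.4 RPKM with Cbx3 siRNA, against 19.6 and 45.0 RPKM in ESC control. The summed level of 12 fibroblast feeder markers ran the same way, at 88.3 and 129 RPKM in ESCs with Cbx3 siRNA, against 69.8 and 148 RPKM in ESC control, with Lum at 0 in 8 of the 10 libraries. Simple epithelium markers summed to 224 and 545 RPKM with Cbx3 siRNA, against 250 and 431 RPKM in ESC control, and pluripotent cell markers ran the other way, at 1629 and 1264 RPKM, against 1812 and 1259 RPKM in ESC control. The part of other cells in the 2 genes' levels was not tested.

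The response to Cbx3 siRNA in NPCs and in ESCs can be set side by side, since the 2 comparisons share no library. The direction was the same for 27 of the 33 genes (81.8%), against 69.7% of all genes tested, and for 11 of the 12 genes called in NPCs (91.7%), against 87.4% of all genes called in NPCs. Cth was the exception among the 12, at 57.2 and 66.3 RPKM in ESCs with Cbx3 siRNA and 77.9 and 61.6 RPKM in ESC control. A test of the difference between the 2 responses called 0 of the 33 (0% of all genes, limma, with 2 of the 33 and 231 of all genes at an unadjusted p under 0.05). Nupr1 had a difference of 0.96 (standard error 0.20, unadjusted p = 0.0016 in a limma fit, adjusted p = 1), and in ESCs it was at 16.3 and 16.9 RPKM with Cbx3 siRNA, against 17.8 and 13.8 RPKM in ESC control.

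**Figure D3:**
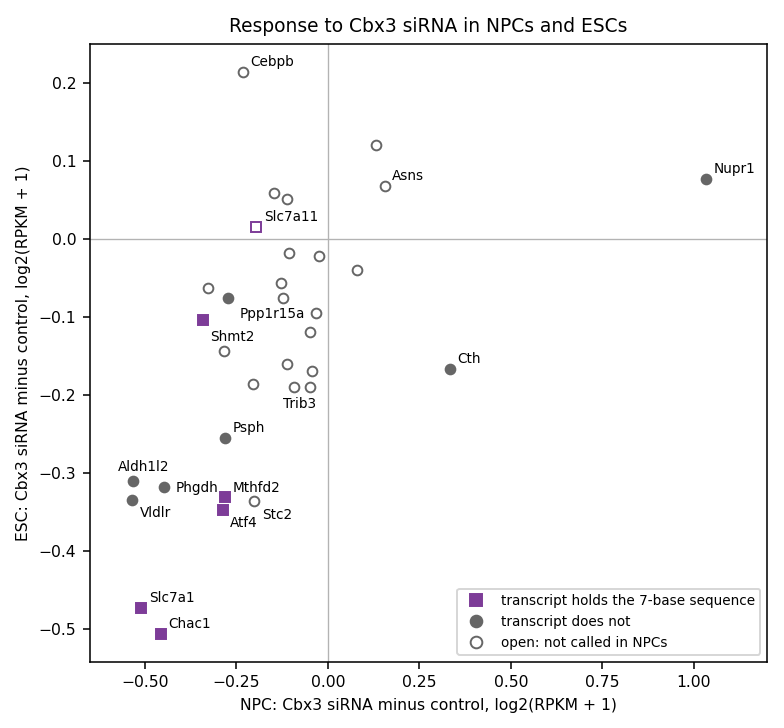
The log2(RPKM + 1) difference between Cbx3 siRNA and control in NPCs (horizontal) is plotted against the same difference in ESCs (vertical) for the 33 genes; filled symbols passed in NPCs, and squares mark genes whose transcript holds GAGAGTT. Most points, 24 of 33, lie at the lower left, below 0 on both axes, and Nupr1 stands alone at the right. Of all 11922 genes tested, 4476 were below 0 in both cell types.

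Without knockdown of Cbx3 or Med26, the 2 cell types differed in these genes. In NPC control against ESC control 10 of the 33 genes passed (30.3%, against 16% of all genes), 9 higher in NPCs (10.1% of all genes were) and 1 lower (5.91% of all genes). The 9 were the transporter genes Slc1a4, Slc1a5, Slc6a9 and Slc7a3, the enzyme genes Pck2 and Aldh18a1, and Vldlr, Eif4ebp1 and Chac1, and the 1 lower was Nupr1. None of the 4 serine and asparagine synthesis genes and none of the 4 mitochondrial one-carbon genes passed. Over the 33 genes the median log2 difference was 0.37, against 0.03 over all genes, and both NPC control libraries lay above both ESC control libraries for 22 (34.5% of all genes) and below them for 1 (24.6% of all genes). The count was 0 with the 4 control libraries fitted alone, with 47 genes of the whole table called. With 1 library left out, it rose or fell from fit to fit as the count for all genes did. Without ESC control replicate 1, the share of the 33 genes called was near that of all genes. The median log2 difference over the 33 was 0.32 and 0.38 without NPC control replicate 1 and 2 (0.03 and 0.04 over all genes). It was 0.35 and 0.47 without ESC control replicate 1 and 2 (0.095 and 0.005 over all genes).

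Nupr1 was at 5.67 and 5.49 RPKM in NPC control, against 17.8 and 13.8 RPKM in ESC control (log2 difference -1.34, adjusted p = 0.00253, limma), and it was called in all 10 fits with 1 library left out. Its level in NPCs with Cbx3 siRNA, 13.4 and 11.6 RPKM, was still below both ESC control libraries. Pck2 was at 23.6 and 24.1 RPKM in NPC control, against 16.1 and 11.9 RPKM in ESC control (0.74, adjusted p = 0.0173, limma). The Pck2 level with Med26 siRNA, 12.8 and 12.9 RPKM, lay within the range of ESC control. Slc1a4 was at 17.3 and 15.4 RPKM in NPC control, against 10.1 and 9.88 RPKM in ESC control (0.66, adjusted p = 0.0067, limma). Slc7a3 was at 129 and 134 RPKM in NPC control, against 66.0 and 91.2 RPKM in ESC control (0.76, adjusted p = 0.0317, limma). The groups did not overlap for any of these 4 genes.

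Slc6a9 was at 4.85 and 3.87 RPKM in NPC control, against 2.13 and 2.37 RPKM in ESC control (0.72, adjusted p = 0.0141, limma), and Vldlr was at 2.06 and 1.86 RPKM, against 0.683 and 1.02 RPKM in ESC control (0.68, adjusted p = 0.0176, limma). Eif4ebp1 was at 356 and 353 RPKM in NPC control, against 242 and 266 RPKM in ESC control (0.48, adjusted p = 0.0251, limma). Aldh18a1, Slc1a5 and Chac1 differed by 0.52, 0.50 and 0.64 (adjusted p = 0.0231, 0.0226 and 0.0402, limma). These genes were thus lower in ESC control in every library. Atf4 and Ddit3 had higher levels in NPC control but missed the threshold (0.38 and 0.28, adjusted p = 0.0546 and 0.0875, limma). Trib3, Asns and Phgdh overlapped between the cell types, with differences of 0.01, 0.12 and -0.04.

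**Figure D4:**
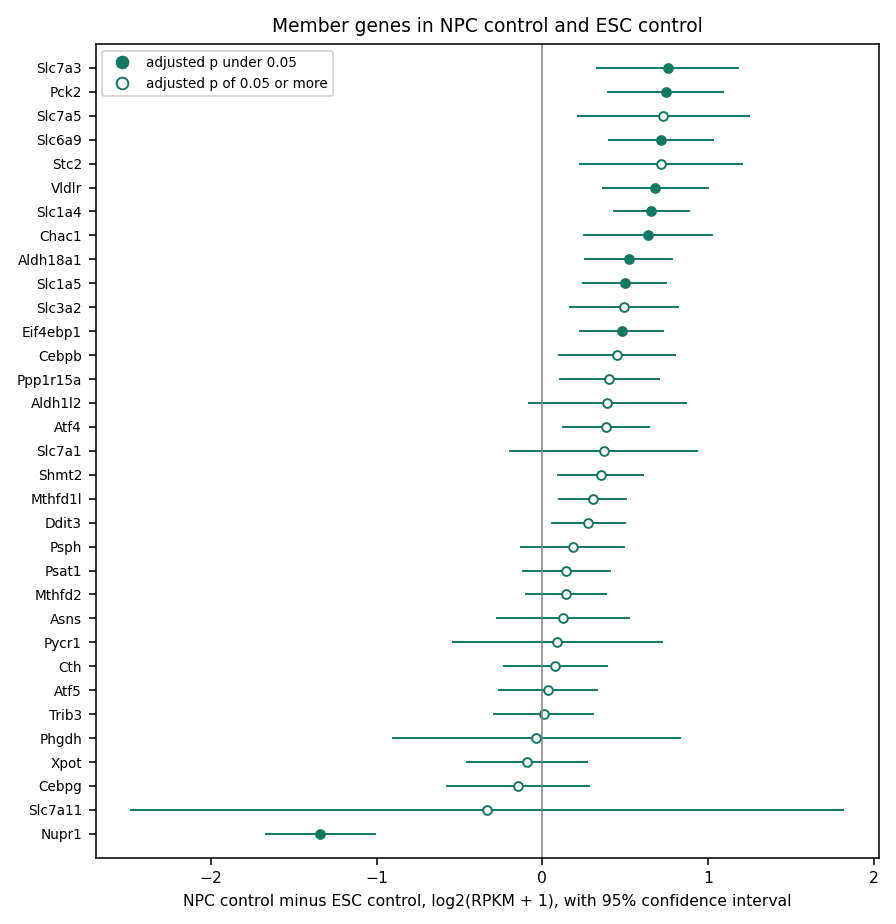
The difference in log2(RPKM + 1) between NPC control and ESC control is drawn for each of the 33 genes with its 95% confidence interval from limma, sorted from the highest; filled points have an adjusted p under 0.05. Of the 33 points, 28 lie right of 0, Nupr1 is lowest at -1.34, and the interval of Slc7a11 is the widest. Of all 11922 genes tested, 6379 had a difference above 0.

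Other genes of the pathway were followed in 7 lists, whose shares of calls are to be read against 13.1% of all genes after Cbx3 siRNA and 13.4% after Med26 siRNA, in either direction. Upstream of ATF4, 3 of 18 tested genes for the eIF2 kinases, eIF2 and its regulators passed after Cbx3 siRNA (16.7%; 1 higher, 2 lower) and 5 after Med26 siRNA (27.8%; 1 higher, 4 lower). Impact, an inhibitor of the amino acid sensor kinase GCN2, was at 43.9 and 44.7 RPKM with Cbx3 siRNA and 25.9 and 26.3 RPKM with Med26 siRNA, against 54.1 and 57.0 RPKM in NPC control. It fell after both (-0.32 and -1.06, adjusted p = 0.014 and 0.000846, limma), and the Med26 siRNA libraries were the lowest. Ppp1r15b, the constitutive partner of the eIF2 phosphatase, fell after both (-0.34 and -0.26), Eif2ak2, the kinase that senses viral RNA, rose after Cbx3 siRNA (0.46), and Eif2s2, a subunit of eIF2, fell after Med26 siRNA (-0.31).

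Of 20 cytosolic aminoacyl-tRNA synthetase genes, which charge tRNAs and are ATF4 targets in part, none passed after Cbx3 siRNA (0%) and 5 fell after Med26 siRNA (25%), led by Vars and Sars (-0.30 and -0.33). A further 27 known ATF4 or CHOP targets gave 3 higher and 5 lower after Cbx3 siRNA (29.6%) and 6 higher and 4 lower after Med26 siRNA (37%). Txnip, an inhibitor of thioredoxin and glucose uptake, rose after Cbx3 siRNA (0.59), while Klhl24, the alanine aminotransferase gene Gpt2 and the mTORC1 inhibitor gene Sesn2 fell (-0.47, -0.32 and -0.57). After Med26 siRNA Gpt2 fell (-0.52) and the cyclin gene Ccng2 rose (0.71).

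In the cytosolic folate, glycine cleavage and methionine cycles, with 19 tested genes, 2 were higher and 2 lower after Cbx3 siRNA (21.1%), and 1 was higher and 4 lower after Med26 siRNA (26.3%). Mthfd1, the cytosolic counterpart of the mitochondrial folate enzymes, rose after both (0.36 and 0.39), opposite to Shmt2 and Mthfd2. Atic, of purine synthesis, rose after Cbx3 siRNA (0.30), the glycine decarboxylase gene Gldc fell (-0.53), and Cbs, which makes the cystathionine that CTH splits, fell after both (-0.65 and -0.71). The unfolded protein response of the endoplasmic reticulum, with 22 tested genes, had 1 called, higher, after Cbx3 siRNA (4.55%; Herpud1, 0.30) and 2 higher and 1 lower after Med26 siRNA (13.6%; led by Edem1, 0.44, and Creld2, -0.31). NRF2 targets, with 15 tested genes, had 1 higher after Cbx3 siRNA (6.67%; Hmox1, 0.29) and 2 higher after Med26 siRNA (13.3%; Hmox1, 0.63, and Srxn1, 0.38). Mitochondrial chaperones and proteases, with 10 tested genes, had 1 lower after Cbx3 siRNA (10%; Hspd1, -0.34) and 2 lower after Med26 siRNA (20%; Hspe1 and Hspa9, -0.30 and -0.29).

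**Figure D5:**
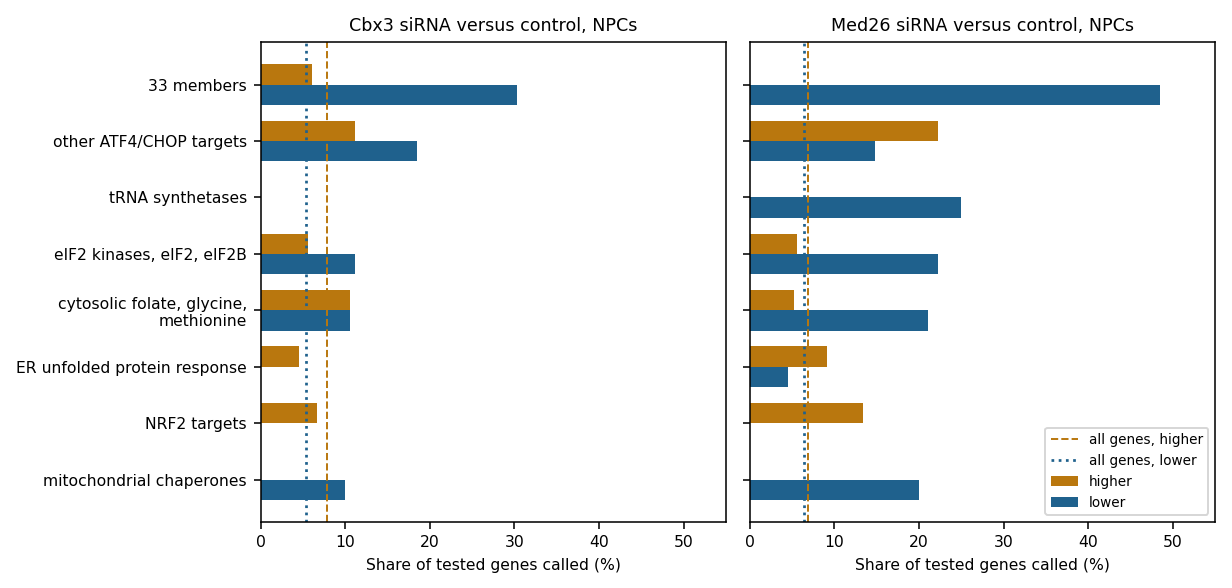
The share of tested genes called (adjusted p under 0.05) is drawn for the 33 genes and the 7 related lists, higher (orange) and lower (blue), after Cbx3 siRNA (left) and Med26 siRNA (right) in NPCs; vertical lines give the shares over all genes. The 33 genes have the longest bars for lower calls in both panels.

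Cell type markers moved in the same libraries, and in bulk RNA fewer cells of a type and less RNA per cell cannot be told apart. Of 8 tested neural progenitor markers, 5 fell after Cbx3 siRNA (62.5%, against 13.1% of all genes called), and after Med26 siRNA 1 rose and 1 fell (25%, against 13.4%). Their summed level was 68.6 and 69.1 RPKM with Cbx3 siRNA and 108 and 109 RPKM with Med26 siRNA, against 96.8 and 91.3 RPKM in NPC control. Of 8 simple epithelium markers, 4 rose after Cbx3 siRNA (50%) and 7 after Med26 siRNA (87.5%), with sums of 964 and 993 RPKM with Cbx3 siRNA and 895 and 910 RPKM with Med26 siRNA, against 655 and 663 RPKM in NPC control. Of 10 tested fibroblast feeder markers, 5 rose and 1 fell after Cbx3 siRNA (60%), and 1 rose after Med26 siRNA (10%). Their sum was 89.6 and 85.7 RPKM with Cbx3 siRNA and 87.9 and 84.4 RPKM with Med26 siRNA, against 56.0 and 50.7 RPKM in NPC control. By gene the 2 siRNAs were less alike than by sum. After Cbx3 siRNA 9 of the 10 were higher and 1 lower, with a median log2 change of 0.44 (0.01 over all genes). After Med26 siRNA 5 were higher and 5 lower, with a median of -0.04 (-0.001 over all genes). Of 12 pluripotent cell markers 3 fell after Cbx3 siRNA (25%), while after Med26 siRNA 4 rose and 1 fell (41.7%). In NPC control against ESC control 7 of these 12 were lower (58.3%, against 5.91% of all genes). Of the 8 neural progenitor markers 3 were higher (10.1% of all genes were) and 1 was lower. The neural progenitor markers, which share Sox2 with the pluripotent list, summed to 96.8 and 91.3 RPKM in NPC control, against 154 and 106 RPKM in ESC control. Their sum was thus not higher in the cells labelled NPCs, but by gene most were. Of the 8 tested, 7 were higher in NPC control and 1 was lower. The median log2 difference was 0.725, against 0.03 over all genes. For 6, both NPC control libraries lay above both ESC control libraries (34.5% of all genes). The pluripotent markers summed to 1007 and 987 RPKM in NPC control, against 1812 and 1259 RPKM in ESC control. The cells labelled NPCs thus still held some of their RNA, but a sum follows its most abundant genes. By gene, 11 of the 12 were lower in NPC control, and the median log2 difference was -1.675, against 0.03 over all genes. For 9, both NPC control libraries lay below both ESC control libraries (24.6% of all genes). The next counts are to be read against 13.1% of all genes called after Cbx3 siRNA and 13.4% after Med26 siRNA. Neuron markers had 1 higher and 2 lower of 3 after Cbx3 siRNA (100%) and 1 lower after Med26 siRNA (33.3%). Mesoderm markers had 1 higher of 2 and 1 lower of 2 in turn (50% each), and endoderm markers none of 3 (0%). Markers at 0 in some libraries were Fabp7 (4 libraries), Dcx (2), Dcn (1), Kdr (1) and Afp (7). The part of these shifts in the changes of the 33 genes was not tested.

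The transcripts of 6 of the 33 genes hold the 7 bases GAGAGTT (18.2%, against 19.9% of 11517 tested genes searched), a sequence that earlier work on these data picked out because it moved with the Cbx3 siRNA changes. It is in 5 of the 10 genes that fell after Cbx3 siRNA in NPCs, and in 36.3% of all searched genes that fell, 11.2% of those that rose and 19.7% of those not called. The sequence was picked from these same data, so these shares are no test of it. The 5 sites are shown with 11 bases on each side and GAGAGTT in capitals, in the transcript's direction, for comparison with the siRNA sequences, which were not used here.
Atf4, coding sequence: agggggaagaaGAGAGTTccgtaataggg
Shmt2, coding sequence: ggacgggccagGAGAGTTtatcagacagt
Slc7a1, coding sequence: caagcccatcgGAGAGTTctcacgtcagc
Chac1, 3′ UTR: atggagcaagaGAGAGTTgagaaggcatg
Mthfd2, 3′ UTR: cagactgttaaGAGAGTTgtgtgtctgtt
The sites come from GENCODE transcripts on GRCm38. Slc7a11, which was not called after Cbx3 siRNA, holds the sixth. Chac1, Shmt2 and Mthfd2 fell after Med26 siRNA as well. The part of this sequence in these changes was not tested.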

How the data were processed

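Per the labels, Trizol was used for RNA and an Illumina TruSeq kit for libraries. The authors deposited RPKM per RefSeq accession and library. The submitters' processing notes name TopHat2 2.08 and mm9. Not given in the sources used here are the counting tool, annotation and strand use. Overlapping genes and copies may therefore share reads. The 35860 rows were given symbols by the RefSeq table of GRCm38.p6 (35526 rows) and GENCODE (196 more), with 138 rows left as they were. Low values fell on steps that correspond to 23.3 to 63.8 M (mega) reads per library, too uneven to recover whole reads, so counting error is known only roughly. log2(RPKM + 1), which understates changes of low genes, entered limma 3.58.1 under R 4.3.3 (intensity trend, two-sided, Benjamini-Hochberg adjustment at 0.05 over all genes tested, which had at least 1 RPKM in at least 2 libraries). NPC comparisons used the 6 NPC libraries, and the others all 10. The script was tested on simulated data. Members, lists and this choice of libraries were made with earlier results of these data known. All 33 genes are named. Each pathway list gives at most the 4 genes with the smallest adjusted p after Cbx3 siRNA and the 2 after Med26 siRNA. Some genes are in 2 lists. Alternatives were another pseudocount (0.1), no filter, other library sets, a replicate block, median centring, the sum over a gene's rows and each library left out.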

Additional observations from a re-analysis of the deposited data

How the results depend on the processing

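Counts are given for the 33 genes, then for all genes. Without the filter on low values they were 3 and 879 for Cbx3 siRNA in NPCs, 4 and 609 for Med26 siRNA, and 5 and 1323 between the knockdowns, with 2 of all genes called in ESCs and 4 for the difference between the Cbx3 responses. With all 10 libraries in the fit they were 0 and 1, 0 and 15, and 1 and 121 for the 3 NPC comparisons, and with the 4 control libraries alone 0 and 47 for NPC against ESC control. A replicate block gave 21 and 3491 for Cbx3 siRNA in NPCs, 23 and 3696 for Med26 siRNA, 15 and 4232 between the knockdowns, 6 and 814 in ESCs (Atf4, Chac1, Stc2, Psph, Mthfd2 and Slc7a1), 24 and 6898 for NPC against ESC control, and 0 and 6 for the difference between responses. Same-numbered libraries deviated together (correlations of 0.423 to 0.461 in NPCs and 0.892 in ESCs), but nothing in the labels pairs them, so they were not treated as pairs. With 1 library left out, where a lone sample is assumed to vary like the other groups, the counts ranged over 1 to 7 and 392 to 1059 for Cbx3 siRNA in NPCs, 1 to 14 and 164 to 1147 for Med26 siRNA, 3 to 6 and 556 to 1669 between the knockdowns, 0 and 0 to 1 in ESCs, 1 to 17 and 184 to 2689 for NPC against ESC control, and 0 and 0 for the difference between responses. Pseudocount, centring and summing over rows kept every count within 1.5 times. None of the genes called among the 33 changed sign under any of these settings. The cause of the differences between fits was not tested. With 2 libraries a group and ESC replicates far apart, a gene that missed the threshold may still differ.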
